A study of Mus musculus with 16 samples.

Results

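The comparison asked how CD4+CD8+ thymocytes that carry the BDC2.5 T cell receptor (TCR) transgenes differed from wild-type thymocytes on the B6g7 background, before any peptide was given. It used 5 of the 16 Affymetrix mouse arrays of the study, chosen by their titles: 3 of BDC2.5/B6g7 cells without added peptide and 2 of wild-type B6g7 cells. All arrays measured total RNA of double-positive (CD4+CD8+) thymocytes grown in fetal thymic organ culture, where lobes of fetal thymus develop in vitro. BDC2.5 mice express the rearranged TCR alpha and beta chains of a CD4 T cell clone from a diabetic mouse, and B6g7 mice are C57BL/6 mice with the g7 MHC haplotype of the diabetes-prone NOD strain. The same pair of genotypes on the NOD background (BDC2.5/NOD without peptide, n = 3, and wild-type NOD, n = 2) shares no array with it and is set beside it where stated. A further group of the study, BDC2.5/B6g7 cells at 16 h of peptide (n = 3), is not part of the comparison. Its values are given beside it for Asf1b and Pelo and in the plots of probe set intensity on each array. Whether peptide was added to the wild-type cultures is not in the labels, nor are the age of the lobes, the number of embryos behind an array or what drives the transgenes. They also do not say that replicates came from separate animals or cultures, so the p-values measure only the spread between these arrays. Sex-linked transcripts, given below, differed between arrays of the same group, so these were not repeats of the same RNA. Whether the cultures were independent is not established.

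A thymocyte builds its TCR by joining V, D and J gene segments with the recombinase that Rag1 and Rag2 encode, first at the beta locus and then at the alpha locus. A productive beta chain stops further joining at the other beta allele (allelic exclusion), and a TCR that binds self peptide and MHC sends signals that raise Cd5, Nr4a1 and the Egr genes and end Rag expression. In a TCR transgenic thymocyte the rearranged chains are present from the start, and the BDC2.5 receptor is known to use a beta chain of the older name V-beta 4 and an alpha chain of the V-alpha 1 family.

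The array medians of the whole series lay between 54.7 and 59.1 on the authors' intensity scale, and the deposited table gives no detection calls. Markers of the labelled cell type were high: in the 5 arrays Cd8a read 2403 to 5146, Dntt 1905 to 4273, Rag1 861 to 4745 and Cd3e 213 to 285. Of the lists of markers of other cells, 0 members were called in any of the 6 (erythroid, B, NK and myeloid cells, thymic epithelium, and mesenchyme with endothelium). Over all genes 0.0485% were called, so 0 calls in such short lists say little. The list medians lay between -0.11 and 0.03 on the log2 scale. The lowest was that of the erythroid list, in which 13 of 15 markers were lower and 2 higher. Of all genes 45.5% were higher. The summed B cell marker signal over 12 genes ran from 1436 to 2503 in BDC2.5 and from 1522 to 1720 in wild-type arrays. BDC2.5 array 3 and wild-type array 2 stood apart on the first principal component (29.3 and 33.0, against -22.9, 3.14 and -5.16), and had the lowest log2 signal of the 3' over the 5' beta-actin probe set in their group (1.36 and 1.96, against 2.41 to 2.61). Wild-type array 2 also had a 3' beta-actin intensity of 2453, against 8253 to 9792 on the other 4. These arrays are 1 of 3 on one side and 1 of 2 on the other, so the split is not balanced. The female-specific transcript Xist read 463, 1810 and 609 in BDC2.5 and 15.4 and 446 in wild-type arrays, and the Y-linked Eif2s3y read 105, 21.6 and 248 against 245 and 270, so the sexes of the embryos differed between arrays.

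limma called 10 of 12422 probe sets (0.0805%) at a Benjamini-Hochberg adjusted p under 0.05, 5 higher in BDC2.5 cells (0.0403%) and 5 lower (0.0403%), and 185 (1.49%) had an unadjusted p under 0.05, 65 of them higher and 120 lower. The 185 are a smaller share than the 0.05 that would reach such a p with no difference. They are therefore given as a count only. With the replicate number as a block the count at an unadjusted p under 0.05 was 845, with array weights 479. With 3 arrays against 2, an exact permutation test of one value could not go below p = 0.1, so the calls rest on the spread shared over all 16 arrays. Of the 10 called probe sets, 5 read TCR V segments: Trbv13-2 and Trbv1 were lower and Trav9d-3 was higher in BDC2.5 cells. The others were Asf1b, a histone chaperone of replicating chromatin, Gimap4, a GTPase gene of maturing T cells, a dimmer probe set of Pelo, a ribosome rescue factor, and 2 probe sets with no gene in the annotation used here. Over all 8251 measured genes the median log2 difference was -0.01, and 45.5% were higher in BDC2.5 cells.

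Trbv13-2 (V-beta 8.2 in the older naming), a beta chain segment that the BDC2.5 receptor does not use, was lower in BDC2.5 cells by both of its probe sets. Probe set 101279_f_at read 40.6, 42.0 and 37.3 in BDC2.5 arrays 1 to 3 and 315 and 247 in the wild-type arrays. The groups did not overlap. The BDC2.5 values lay below the array medians, and whether this probe set could read a still lower level was not tested. The log2 difference was -2.81 ± 0.27, or 6.99-fold (SE, limma adjusted p = 0.000388). Probe set 94202_at read 24.2, 25.5 and 21.9 against 62.1 and 48.5. It fell by 1.21 ± 0.19 on the log2 scale (limma adjusted p = 0.0266), and it lost its call whichever of the 5 arrays was left out (adjusted p from 0.0795 to 0.727).

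Trbv1 (V-beta 2 in the older naming), another beta segment outside the transgene, was lower by probe set 94726_at. The values were 55.3, 51.6 and 51.4 in BDC2.5 cells against 197 and 172 in wild-type cells, without overlap. The log2 difference was -1.80 ± 0.16, or 3.49-fold (limma adjusted p = 0.000388). The brighter probe set that the annotation also names Trbv1, 93105_s_at, read 10968, 10944 and 12059 against 9096 and 9291, a log2 difference of 0.30 ± 0.14 in the other direction (adjusted p = 1), so the 2 probe sets of this gene disagree. No probe set of the annotation is named for Trbv2, the RefSeq symbol of V-beta 4, or for a Trav7 segment, so the transgene's own V segments were not followed by name.

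Trav9d-3, an alpha chain V segment, was higher in BDC2.5 cells by 2 of its 3 probe sets. By 97944_f_at the BDC2.5 arrays read 3027, 3743 and 3651 and the wild-type arrays 444 and 733. By 97945_at they read 2553, 2697 and 3283 against 214 and 417. Neither pair of groups overlapped, and the lowest BDC2.5 array stood well above the higher wild-type array in both. The differences were 2.60 ± 0.26 (6.06-fold, limma adjusted p = 0.000445) and 3.24 ± 0.34 (9.46-fold, adjusted p = 0.00061) on the log2 scale. Its remaining, dim probe set, 93224_at, gave 0.08 ± 0.10 (adjusted p = 1). The ending _f_at marks probes shared within a gene family, and near-identical Trav copies exist, so which family member 97944_f_at read cannot be told apart.

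The gamma locus gave smaller differences, none of them called in this fit. Trgv4, a V segment of gamma-delta T cells, read 51.6, 42.6 and 44.4 in BDC2.5 cells and 84.1 and 88.6 in wild-type cells (102745_at), a log2 difference of -0.91 ± 0.21 (limma adjusted p = 0.561) without overlap. It was called only with array weights among the settings run (-0.97, limma adjusted p = 0.0382). The probe set shared by Trgv4 and Trgv2 gave -0.79 ± 0.24 and that of Trgv1 0.52 ± 0.26. The alpha segments Trav19, Trav6-2 and Trav12n-1 gave -0.13, 0.06 and 0.01, with every value under 31 and thus below the array medians. In bulk RNA, fewer cells that use a segment and less of its RNA per cell cannot be told apart.

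**Figure D1:**
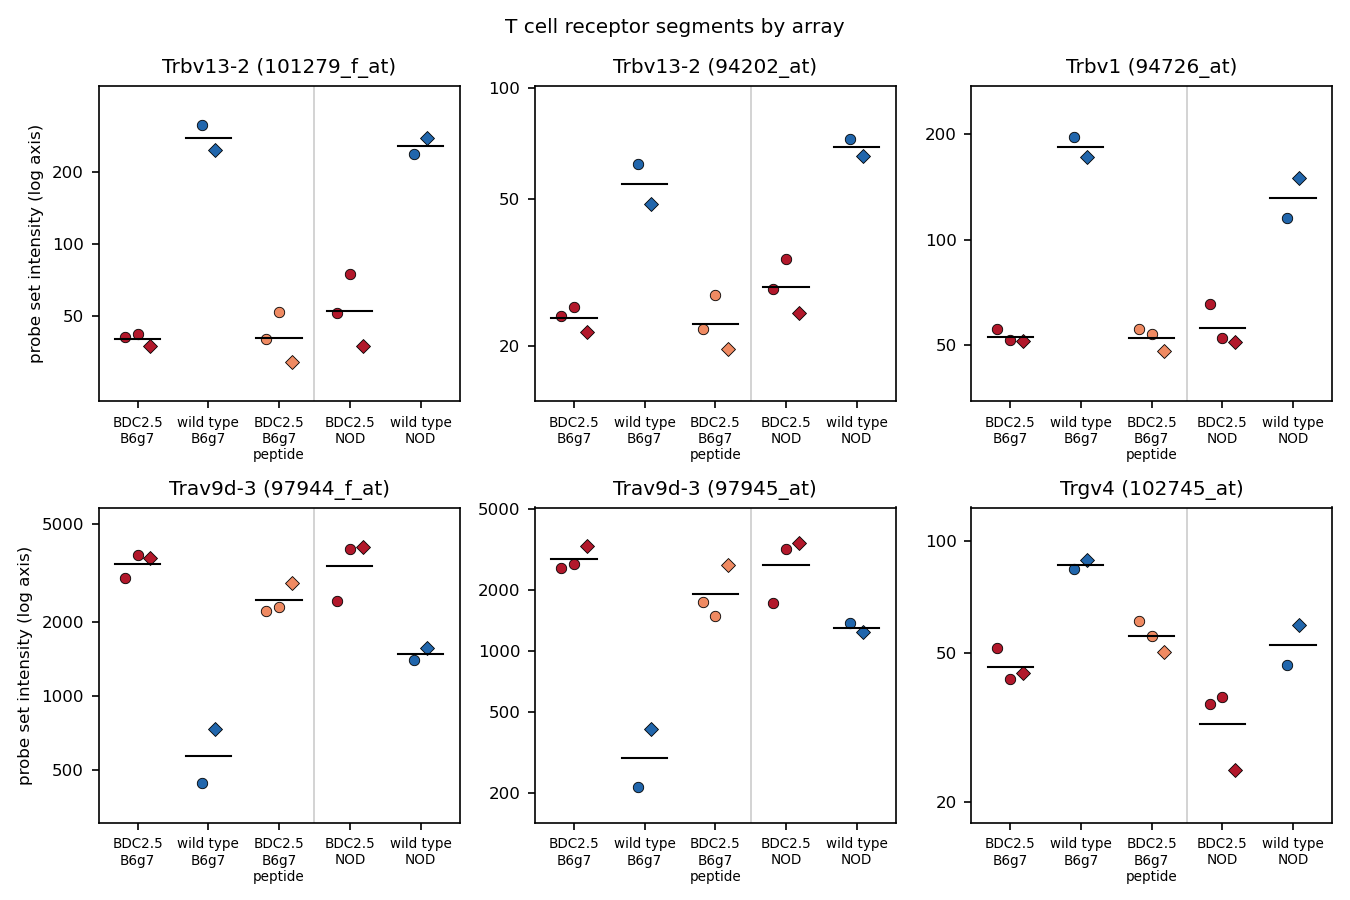
Probe set intensity (log axis) of T cell receptor segments on each array, for BDC2.5/B6g7 without peptide, wild-type B6g7, BDC2.5/B6g7 at 16 h of peptide, BDC2.5/NOD without peptide and wild-type NOD. Each point is 1 array, diamonds are BDC2.5 array 3 and wild-type array 2, and bars are means of the log2 values. Trbv13-2 and Trbv1 lie lower, and Trav9d-3 higher, in every BDC2.5 array than in the wild-type arrays of the same strain; for Trav9d-3 the wild-type NOD arrays (1404 and 1578 by 97944_f_at) lie above the wild-type B6g7 arrays (444 and 733).

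Outside the receptor loci, Asf1b had the smallest adjusted p of the called probe sets that name a gene. Its probe set 97364_at read 1147, 1203 and 1242 in BDC2.5 arrays and 240 and 306 in wild-type arrays, so the BDC2.5 values lay close together and far above. The log2 difference was 2.14 ± 0.25, or 4.41-fold (limma adjusted p = 0.00124). Without wild-type array 1 the call was lost (1.97, adjusted p = 0.0569). Asf1b was the only one of 44 measured genes of S phase and DNA replication that was called (0.0485% of all genes were, at 1 probe set per gene); 21 of the 44 were higher, the list median was -0.01, and Ccna2, the S phase cyclin, gave -0.39 ± 0.35. In the mitosis list, 22 of 45 were higher and the median was -0.01. At 16 h of peptide, in arrays compared with the same BDC2.5 arrays used here, Asf1b read 652, 673 and 526, between the untreated BDC2.5 and the wild-type values.

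Gimap4 belongs to a family of lymphocyte GTPases that act in T cell survival. It read 744, 976 and 744 in BDC2.5 cells and 104 and 157 in wild-type cells (96172_at). The groups did not overlap, and the log2 difference was 2.68 ± 0.34, or 6.39-fold (limma adjusted p = 0.00263). Without wild-type array 1 it was 2.38 and no longer called (adjusted p = 0.133). Its family member and next measured gene on chromosome 6, Gimap1, gave 0.06 ± 0.43.

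Pelo, chosen after its values were seen because the call is on its dimmer probe set, read 84.3, 115 and 95.1 in BDC2.5 cells and 41.2 and 38.6 in wild-type cells by 98017_at. The log2 difference was 1.29 ± 0.15, or 2.44-fold (limma adjusted p = 0.00157), and the call was lost without wild-type array 2 (adjusted p = 0.06). The brighter Pelo probe set, 161280_r_at, read 198, 361 and 183 against 221 and 221, with overlap and a difference of 0.09 ± 0.27. The BDC2.5/B6g7 arrays at 16 h of peptide, which are separate arrays, read 80.3, 73.0 and 103 by 98017_at, while all BDC2.5/NOD and wild-type NOD arrays without peptide lay between 41.8 and 45.0. Both probe sets with no gene in the annotation, also chosen after their values were seen, were lower. Probe set 101311_at read 55.5, 50.5 and 54.8 against 173 and 128 (-1.47 ± 0.14, limma adjusted p = 0.000388). Probe set 99798_at read 47.5, 43.1 and 41.2 against 78.0 and 82.3 (-0.87 ± 0.14, adjusted p = 0.0364), and lost its call whichever array was left out (adjusted p from 0.072 to 0.644).

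The sequences before the start of the 3 called genes outside the receptor loci are shown because each had a probe set called higher in BDC2.5 cells, for Pelo only the dimmer one. They are the 250 bases upstream of the RefSeq start (build GRCm38.p6), 5′ to 3′ on the gene's strand: Asf1b at chr8:83955444-83955693 (plus strand), Gimap4 at chr6:48684328-48684577 (plus strand) and Pelo at chr13:115090159-115090408 (minus strand). Capitals mark CCAAT, the letters bound by the factor NF-Y, or its reverse complement ATTGG.
Asf1b: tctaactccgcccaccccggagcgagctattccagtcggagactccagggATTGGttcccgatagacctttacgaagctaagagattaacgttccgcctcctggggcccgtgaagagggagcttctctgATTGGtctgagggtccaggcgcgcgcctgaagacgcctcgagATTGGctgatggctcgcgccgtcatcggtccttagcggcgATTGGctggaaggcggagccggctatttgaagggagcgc
Gimap4: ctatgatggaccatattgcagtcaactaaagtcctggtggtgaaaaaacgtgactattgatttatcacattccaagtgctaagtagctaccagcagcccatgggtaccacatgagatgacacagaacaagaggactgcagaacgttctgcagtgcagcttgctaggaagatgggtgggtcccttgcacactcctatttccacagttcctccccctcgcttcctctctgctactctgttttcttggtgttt
Pelo: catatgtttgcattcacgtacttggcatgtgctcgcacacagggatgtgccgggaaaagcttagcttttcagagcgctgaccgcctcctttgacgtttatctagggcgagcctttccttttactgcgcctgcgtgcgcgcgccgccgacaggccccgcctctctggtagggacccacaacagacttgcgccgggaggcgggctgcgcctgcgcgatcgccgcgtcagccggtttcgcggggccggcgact
Asf1b held 4 such matches, which 0.84% of 32851 RefSeq promoters of this length reach or exceed, while 33.8% hold at least 1. Gimap4 and Pelo held 0. Of the other letters searched on both strands, GGGCGG (in 32.7% of promoters) occurred 1 time in Asf1b and not in Gimap4 or Pelo, and TATAAA (12.4%) and CGGAAG (13.6%) occurred in none of the 3. GC content was 60.8% for Asf1b, 47.6% for Gimap4 and 63.6% for Pelo. A match is a description of the letters and not a binding site.

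Some genes lay near the threshold. Zdhhc14, a palmitoyltransferase gene, read 47.4, 42.5 and 59.7 in BDC2.5 cells and 131 and 112 in wild-type cells, a log2 difference of -1.30 ± 0.22 that missed the threshold (limma adjusted p = 0.0583). It passed with 5 of 15 alternative settings (adjusted p from 0.0173 to 0.0416), among them the replicate block (0.0356). Shisa5, a p53-linked membrane protein gene, read 907, 1181 and 885 against 246 and 433, 1.59 ± 0.31 (adjusted p = 0.197), and passed in 3 settings: without the last-numbered array of each of the 6 groups (adjusted p = 0.0231), with a covariate for those arrays (0.0156) and with array weights (0.0197). Both separated the groups without overlap.

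**Figure D2:**
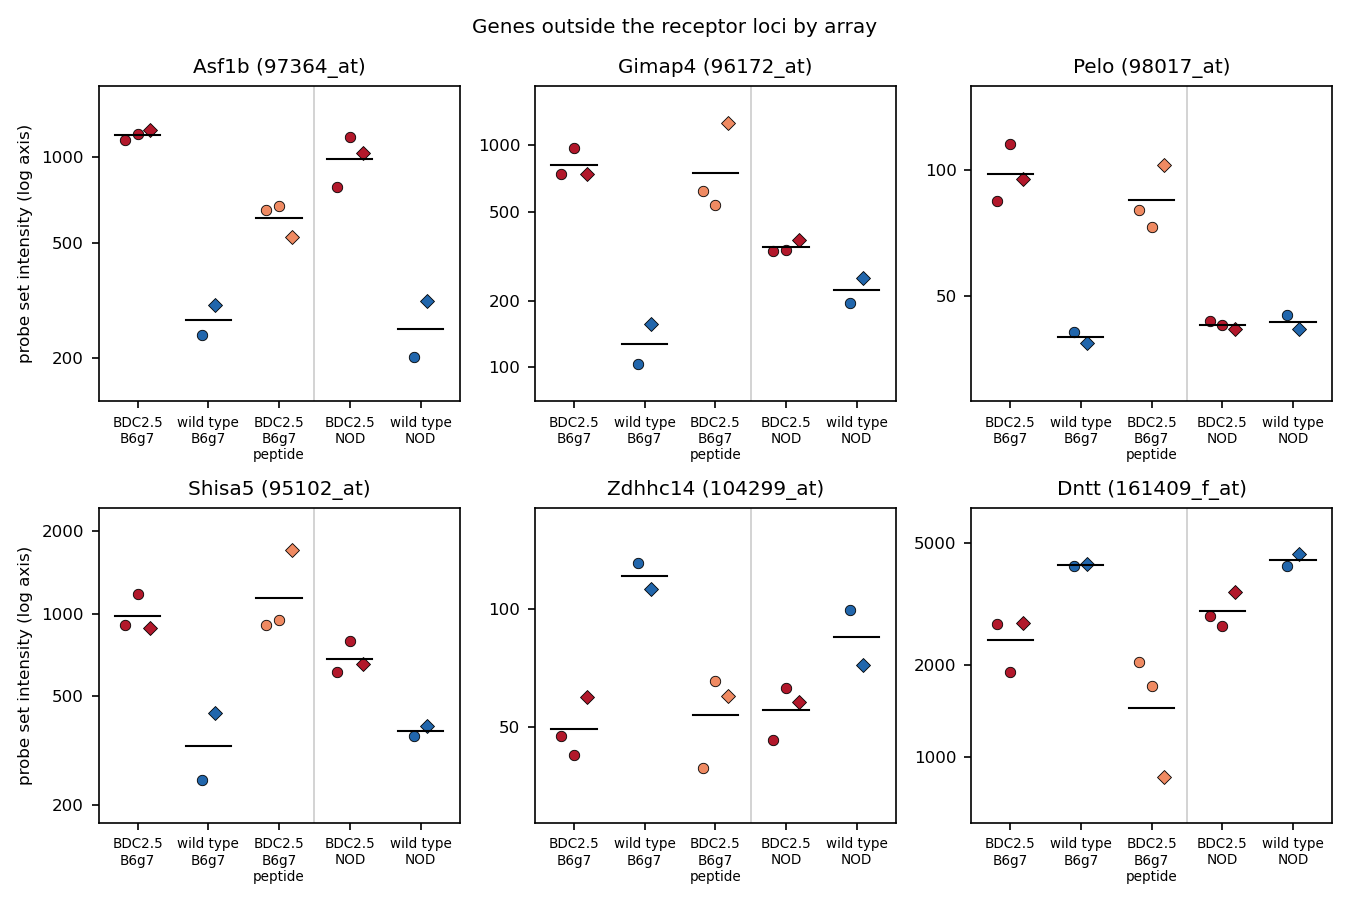
Probe set intensity (log axis) of Asf1b, Gimap4, Pelo, Shisa5, Zdhhc14 and Dntt on each array, in the same 5 groups; points are arrays, diamonds are BDC2.5 array 3 and wild-type array 2, and bars are means of the log2 values. Asf1b is about as far apart in both strains (4.41-fold in B6g7, 3.92-fold in NOD), Pelo is high in B6g7 BDC2.5 arrays only among those plotted, and Dntt is lower in BDC2.5 cells in both strains.

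Genes of the double-positive stage lay mostly on the low side in BDC2.5 cells. Of 24 measured members, 17 were lower and 7 higher, the median was -0.31 (-0.01 over all genes), and 0 were called. In 8 of the 24 the BDC2.5 arrays lay wholly below the wild-type arrays, as they did in 6.33% of all genes. The list was composed with earlier results of these data known. The median stayed negative under every one of the 15 alternative settings, from -0.37 to -0.18, and was -0.09 in NOD. The recombinase gene Rag1 had the lowest value and the other, Rag2, a smaller one. Rag1 read 861, 2138 and 2492 against 2552 and 4745 (-1.07 ± 0.66, limma adjusted p = 1), and Rag2 read 149.9, 215 and 238 against 253 and 388 (-0.67 ± 0.41, adjusted p = 1). In both, BDC2.5 array 1 was lowest and wild-type array 2 highest, and the standard errors are large beside the differences. The dimmer Rag1 probe set, 161740_r_at, gave -0.18 ± 0.19 with overlap.

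Dntt (terminal transferase), which adds bases at the joins, was more even. It read 2721, 1905 and 2735 in BDC2.5 cells against 4203 and 4273 in wild-type cells (-0.81 ± 0.30, limma adjusted p = 1), without overlap, and its dimmer probe sets gave -1.32 ± 0.40 and -1.27 ± 0.61. Ptcra, the pre-TCR alpha chain that pairs with the first beta chain, read 202, 189 and 193 against 323 and 246 (-0.53 ± 0.24). Ets2, a transcription factor gene, gave -0.72 ± 0.27, and Bcl2l1 (Bcl-xL), the survival gene of double-positive cells, -0.37 ± 0.16. Endou and Rmnd5a gave -0.60 and -0.52. These 4 and Dntt, Ptcra, Rag1 and Rag2 are the 8 without overlap, and none was called. In the other direction, Nrgn (neurogranin) lay wholly above, by 0.08 ± 0.10, and Lef1, a transcription factor gene, gave the highest value with overlap (0.97 ± 0.69). The coreceptors Cd4 and Cd8a gave -0.21 ± 0.20 and -0.40 ± 0.39 with overlap, and Satb1, a chromatin organiser of these cells, gave -0.23 ± 0.24.

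Genes induced early by TCR signals lay partly on the high side, without a call. Of 26 measured, 18 were higher, the median was 0.05, and in 6 the BDC2.5 arrays lay wholly above the wild-type arrays, where 4.16% of all genes did so (10.5% were apart either way). The transcription factor gene Irf4, lay wholly below (-0.18 ± 0.24). The median ran from 0.04 to 0.23 over the 15 alternative settings. An unadjusted p under 0.05 with a higher value was reached by 6 of the 26 and by 0.594% of all genes. This list, like the others, was composed with earlier results of these data known, so these counts are descriptive. The orphan nuclear receptor gene Nr4a1 (Nur77) read 332, 256 and 236 against 149.6 and 133 (0.95 ± 0.39, limma adjusted p = 1). The immediate-early gene Ier2 read 307, 296 and 272 against 138 and 125 (1.15 ± 0.34), and its groups were the most clearly parted of the list. Egr1, a zinc finger factor gene, read 275, 432 and 697 against 165 and 289.7 (0.997 ± 0.43), with overlap, while its partner Nab2 gave 0.50 ± 0.20 and Egr2 0.46 ± 0.55. A dim Egr1 probe set, 161802_i_at, went the other way (-0.36 ± 0.13) without overlap, at intensities of 19.1 to 30.0. Id3, an inhibitor of E proteins downstream of Egr factors, read 587, 470.3 and 300.3 against 295 and 164 (0.99 ± 0.43), and the phosphatase gene Dusp2 gave 0.71 ± 0.25. In Nr4a1, Ier2, Id3 and Dusp2 the lowest array of each group was the one that stood apart on the first principal component. In Egr1 that array was the highest of each group. Other members stayed near 0: Jun gave -0.01, Junb 0.03, Myc 0.00 and Gadd45b 0.14.

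Maturation genes also lay partly on the high side, and most activation genes did not. Of 24 positive selection and maturation genes 18 were higher, 1 was called (Gimap4; 0.0485% of all genes on the same 1 probe set per gene) and the median was 0.06. Cd5, a negative regulator whose level follows TCR signal strength, read 1364, 872 and 738 against 629.9 and 319.5, 1.09 ± 0.52 (limma adjusted p = 1). Cd2, an adhesion receptor, read 2185, 1348 and 1164 against 1107 and 488 (1.04 ± 0.49). In Cd5 and Cd2, and in Ltb and Blk below, the lowest array of each group is the one that stood apart, BDC2.5 array 3 and wild-type array 2. The part of this in the difference was not tested. Ltb (lymphotoxin beta) read 1294, 1202 and 639 against 616 and 408 (0.99 ± 0.40), barely without overlap. Cd53, a tetraspanin, gave 1.13 ± 0.40 with overlap. Blk, a Src family kinase gene listed with gamma-delta and NKT-lineage genes, read 77.2, 104 and 53.5 against 39.9 and 34.3 (1.03 ± 0.24, adjusted p = 0.591). Of the 31 activation receptors and cytokines 13 were higher, with a median of -0.02, against 45.5% of all genes higher. Still, 4 of the 31 lay wholly above the wild-type arrays and 3 wholly below, where 4.16% and 6.33% of all genes did so. The highest value of this list was 1.09.

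The remaining fixed genes gave small values with limma adjusted p = 1 for each. Higher than 0.3 were Zap70 (0.61 ± 0.62), H2-K1 (0.57 ± 0.50), Cd28 (0.46 ± 0.34), Bcl2l11 (Bim, the BH3-only death gene; 0.40 ± 0.29) and Ccnd2 (0.40 ± 0.71). Ccnd3, the cyclin of dividing thymocytes, gave -0.30 ± 0.27 without overlap. Near 0 lay Itm2a (0.00), Pdcd1 (0.03), Il7r (0.03), H2-D1 (0.04), Bcl2 (0.05), Hes1 (0.05), Socs3 (0.10), Ccr7 (0.18), Cd3e (-0.05), Cd44 (-0.06), Notch1 (-0.10) and Il2ra (-0.12).

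By the rule for the largest separated differences at an intensity of at least 100, 155 genes were eligible as higher and 141 as lower, and the 15 largest each way were named. Those higher and not yet given were Xist (3.27 ± 2.26), which follows the sex of the embryos, Adgrl1 (an adhesion receptor gene, 1.35 ± 0.52), Crybg1 (1.17 ± 0.27, limma adjusted p = 0.606), Tes (0.96 ± 0.47) and Otulinl (0.96 ± 0.54). Those lower and not yet given were Ncam1 (an adhesion molecule, -1.07 ± 0.36), H2-T18 (-1.05 ± 0.30), Wls (the Wnt secretion factor, -1.05 ± 0.30), Pdk1 (-0.76 ± 0.21), Rdx (-0.73 ± 0.62), Sgpp1 (-0.69 ± 0.36), Errfi1 (-0.65 ± 0.32), Fas (the death receptor, -0.65 ± 0.34) and H2-Bl (-0.64 ± 0.29). Apart from Crybg1 each of these had an adjusted p of 1. H2-T18, the gene of the thymus leukaemia antigen, a class I-like molecule of cortical thymocytes, read 1533, 1114 and 1419 in BDC2.5 cells against 3141 and 2453 in wild-type cells, a 2.07-fold lower level. As an _f_at probe set it may read other members of the H2-T family. Dimmer probe sets of the genes named here did not all follow. Those of Ncam1 gave -0.18 ± 0.21 and 0.01 ± 0.07, that of Errfi1 -0.11 ± 0.12 and that of Tes 0.05 ± 0.08, all with overlap. Those of Otulinl gave 0.43 ± 0.27 without overlap and -0.08 ± 0.16 with overlap.

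**Figure D3:**
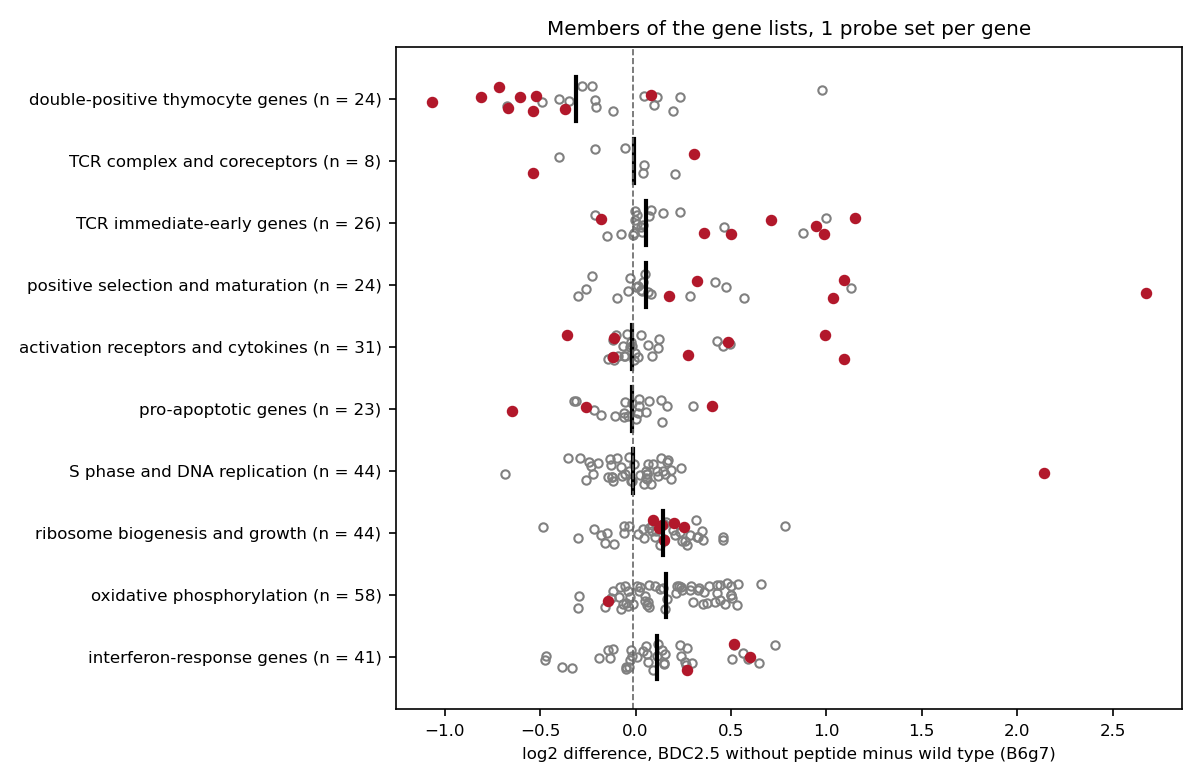
Log2 difference (untreated BDC2.5 over wild type, B6g7) of each measured member of 10 gene lists, 1 probe set per gene. Each circle is a gene, filled red where the 3 BDC2.5 arrays do not overlap the 2 wild-type arrays, black bars are list medians and the dashed line is the median of all genes (-0.01). The double-positive list has a median of -0.31, and single genes far to the right are Gimap4 (2.68) among maturation genes and Asf1b (2.14) among S phase genes.

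Metabolic and growth lists shifted little. Of 58 oxidative phosphorylation genes 42 were higher (median 0.16) and of 44 ribosome biogenesis genes 34 (median 0.14), with 0 called in either, and 5 of 21 glycolysis genes were higher (median -0.11, Pdk1 the lowest at -0.76). The NOD medians were 0.16, 0.02 and -0.18. The interferon-response list had 27 of 41 genes higher (median 0.11), but the median was 0.52 for BDC2.5 arrays 1 and 2 against wild-type array 1 and -0.17 for BDC2.5 array 3 against wild-type array 2, so its direction depends on the array. Of 23 pro-apoptotic genes 11 were higher (median -0.02), and of 20 anti-apoptotic genes 8 (median -0.04).

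The NOD arrays gave the same comparison in other samples, which entered the fit above only through its shared estimate of the spread. They had the same unbalanced split of arrays as B6g7. BDC2.5/NOD array 3 and wild-type NOD array 2 stood apart on the first principal component (31.95 and 37.72, against -26.4, -17.2 and -18.9). How much of the likeness between the strains came from this shared split was not tested. In NOD limma called 7 of 12422 probe sets (0.0564%), 1 higher (Asf1b; 0.00805%) and 6 lower (0.0483%). Of the 10 called in B6g7, 6 were called in NOD as well: both Trbv13-2 probe sets, Trbv1 (94726_at), Asf1b and both unnamed probe sets. In 9 of the 10 the NOD groups were also apart in the same direction, where 8.17% of genes, at 1 probe set per gene, were apart either way. The exception was Pelo (-0.02 ± 0.15). A call favours probe sets with a small spread over all arrays of the fit, the NOD arrays included. The share of all genes is therefore not a like comparison. Asf1b read 787, 1175 and 1034 in BDC2.5/NOD and 201 and 314 in wild-type NOD (1.97 ± 0.25, limma adjusted p = 0.00645). Trbv13-2 gave -2.30 ± 0.27 by 101279_f_at (adjusted p = 0.00557) and Trbv1 -1.24 ± 0.16 (adjusted p = 0.00814).

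Trav9d-3 and Gimap4 gave larger values in B6g7 than in NOD. By 97944_f_at BDC2.5/NOD read 2445, 3959 and 4038 and wild-type NOD 1404 and 1578, so the BDC2.5 levels of the strains were alike in range while the wild-type NOD level lay above the wild-type B6g7 level. The NOD difference was 1.19 ± 0.26 (limma adjusted p = 0.676). Gimap4 read 333, 338 and 376 in BDC2.5/NOD and 196 and 254 in wild-type NOD (0.65 ± 0.34, adjusted p = 0.999). The difference between strains was not called for either, nor for any of the 12422 probe sets by limma (0%), while 104 (0.837%) had an unadjusted p under 0.05. Of the 15 genes named as higher, 15 had the same sign in NOD and 6 were apart there without overlap (5.79% of all genes were so). Of the 15 named as lower these counts were 14 and 8 (2.38%), the exception in sign being Fas (0.20). Over all 8251 genes, 5024 were higher in BDC2.5 cells in NOD and 3227 lower.

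**Figure D4:**
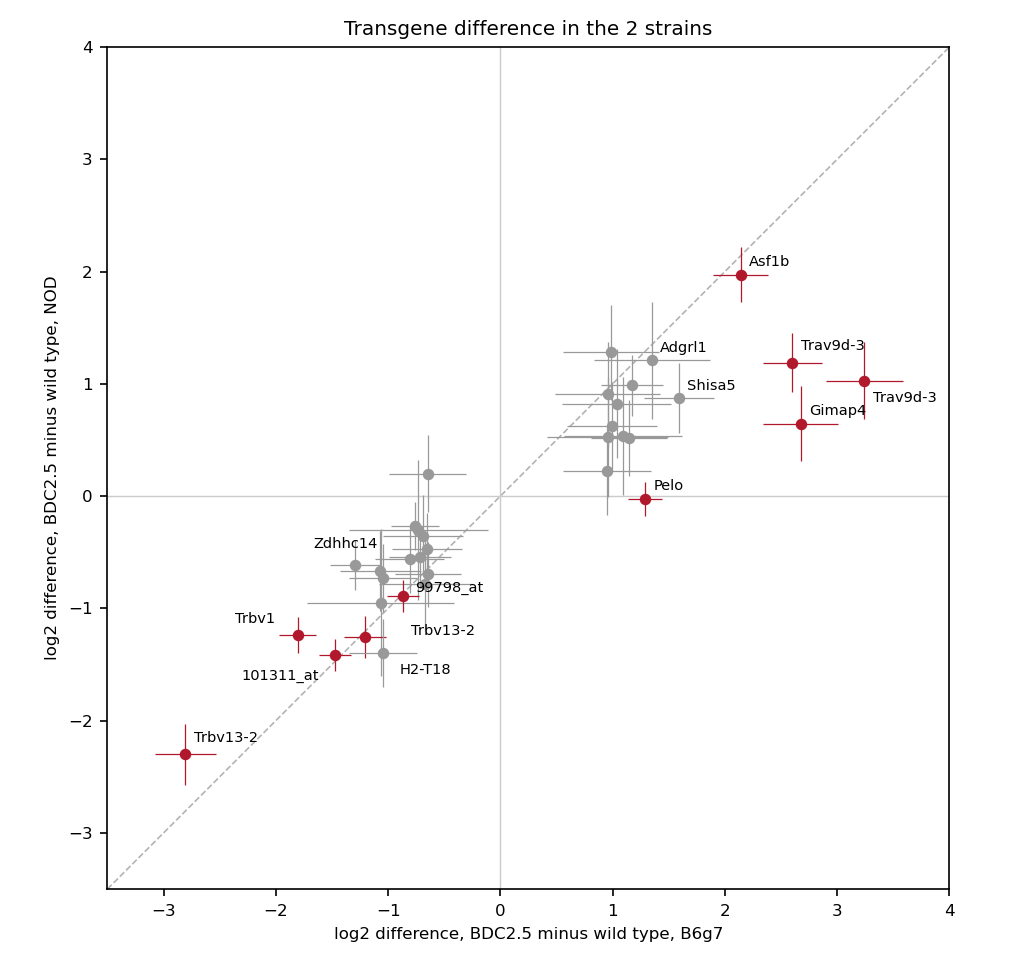
Log2 difference between BDC2.5 without peptide and wild type in B6g7 (horizontal) and in NOD (vertical), which share no array, for the called probe sets (red) and the other named genes without Xist (grey). Bars are standard errors of the fit and the dashed line marks equal differences. Asf1b (2.14 and 1.97) lies near the line, Gimap4 (2.68 and 0.65) and Trav9d-3 (2.60 and 1.19) below it, and Pelo (1.29 and -0.02) at 0 in NOD.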

How the data were processed

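Gene expression was measured on 16 arrays of CD4+CD8+ thymocytes in 6 groups. The table deposited by the authors gives linear intensities, 1 for every probe set on every array. Its array medians are nearly equal; the method of background correction, scaling and probe set summary was not given in the sources used here. These deposited intensities were taken to log2 with no pseudocount and no further scaling, since the array medians of log2 lay within 0.11. Of 12488 probe sets, 66 controls were left out and 12422 tested. By the platform annotation 10833 named 1 gene, 396 several and 1193 none.

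A linear model (limma 3.58.1 under R 4.3.3, with moderated variances that follow an intensity trend) was fitted to all 16 arrays with 1 mean per group and no replicate block (10 residual and 3.60 prior degrees of freedom). All tests were two-sided, with Benjamini-Hochberg adjustment over all probe sets and a threshold of 0.05. The ± values of log2 differences are standard errors from the model. The number of arrays limits the precision. The code was checked on simulated data.

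The 27 gene lists and 6 marker lists, the fixed genes and the naming rule were chosen with earlier results of these data known. Lists use each gene's brightest probe set and are described by counts and medians. Named were called 1-gene probe sets that are brightest for their gene, the 15 strongest rises and 15 strongest falls with a mean of at least 100 in the higher group, no overlap and the same sign within both array splits, the fixed genes, up to 4 members per list by p, all TCR segments, and the 6 largest strain differences each way. Not every list member so chosen is printed, and some fixed genes are not reported here. The 15 alternatives covered the replicate block, the arrays that stood apart, samples in the fit, scaling, pseudocount (16), intensity filter (50), trend, array weights, left-out arrays and an Xist covariate. Promoter sequences and gene order are from RefSeq (GRCm38.p6), read with pandas 2.3.3.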

Additional observations from a re-analysis of the deposited data

Results flagged for a closer look

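The interaction term of the limma fit compared the transgene difference between B6g7 and NOD. It had an unadjusted p under 0.05 for 6 probe sets among the called ones and the 15 genes named each way. The screened probe sets had been picked by their B6g7 differences, which also enter this term, so larger B6g7 values were favoured. The share over all probe sets, given next, is therefore not a like comparison. Over all probe sets 104 of 12422 (0.837%) reached that p, among them other named genes such as Pbx3 (1.45). None passed after Benjamini-Hochberg adjustment over all 12422 probe sets. The B6g7 minus NOD difference was 2.22 for Trav9d-3 by 97945_at and 1.41 by 97944_f_at (limma adjusted p = 1 for each). It was 2.03 for Gimap4 (limma adjusted p = 1), which read higher in BDC2.5 cells of both strains. For Pelo by 98017_at it was 1.31 (limma adjusted p = 0.394), with no difference beyond the spread in NOD. Trbv1 by 94726_at gave -0.57 and Zdhhc14 gave -0.69 (limma adjusted p = 1 for each), both lower in BDC2.5 cells in each strain and by more in B6g7. The BDC2.5 arrays of both strains lay near the array medians, at 50.9 to 65.4 for Trbv1 and 42.5 to 63.0 for Zdhhc14. It was the wild-type arrays that differed. Trbv1 read 197 and 172 in wild-type B6g7 and 115 and 150 in wild-type NOD, and Zdhhc14 read 131 and 112 against 99.2 and 71.9.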

How the results depend on the processing

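With 3 arrays against 2, and 1 wild-type array deciding several calls, the counts of called probe sets (5 higher, 5 lower) moved with the setting. With the 5 B6g7 arrays alone, which leaves 3 residual degrees of freedom, limma called 0 higher and 1 lower (203 at an unadjusted p under 0.05), and with array weights 8 and 8. With log2 Xist as a covariate, chosen after seeing the data, it called 5 higher and 3 lower. Leaving out 1 array gave 3 to 5 higher and 3 lower each time. The other settings stayed within 1.5 times these counts. The count at an unadjusted p under 0.05 (185) moved more: 845 with the replicate block, 479 with array weights, 366 with the covariate for the arrays that stood apart, 338 without wild-type array 1, and 81 of 6687 probe sets with the intensity filter. Trbv13-2 by 101279_f_at was called in 16 of 16 fits, Trbv1, both Trav9d-3 probe sets and 101311_at in 15, Asf1b and Gimap4 in 14, Pelo in 13, 99798_at in 8 and Trbv13-2 by 94202_at in 7. The strain difference gave 0 calls under every setting run. The titles number the arrays, but the numbers do not establish pairs: deviations from the group means correlated at 0.69 for number 1 and 0.06 for number 2, and the wild-type arrays carry no number 3. BDC2.5 array 3 and wild-type array 2, which stood apart, correlated at 0.69 although their numbers differ. With only 2 wild-type arrays, their deviations from the mean are equal and opposite. These correlations are thus tied to each other and are not separate evidence on pairing. With the replicate block limma called 6 higher and 6 lower, adding Zdhhc14 and 1 other probe set. Array weights added Trgv4 (-0.97, limma adjusted p = 0.0382). List medians near 0 also turned: S phase ran from -0.13 to 0.15, mitosis from -0.04 to 0.06, activation receptors from -0.04 to 0.20, oxidative phosphorylation from -0.04 to 0.39 and interferon response from -0.22 to 0.57. Single genes and segments that turned were fixed ones, none of them called. With the replicate block they were H2-D1 (-0.013), Cd44 (0.0086), Itm2a (-0.16), Notch1 (0.15), Ccnd2 (-0.047), Pdcd1 (-0.11) and Il7r (-0.11). With a covariate for the arrays that stood apart it was Socs3 (-0.068), and without those arrays Cd3e (0.012), Cd8a (0.023), Cd4 (0.063), Itm2a (-0.40) and Il7r (-0.22). Quantile normalization turned H2-D1 (-1.27e-05) and Itm2a (-0.047). Array weights turned H2-D1 (-0.065), Cd3e (0.058), Hes1 (-0.072), Itm2a (-0.010) and Il7r (-0.052). The Xist covariate turned H2-D1 (-0.091), Cd44 (0.041), Trav12n-1 (-0.011), Itm2a (-0.069), Notch1 (0.31), Ccnd2 (-0.12) and Pdcd1 (-0.25). With each array left out in turn, Bcl2 ran from -0.087 to 0.18, Cd3e from -0.16 to 0.048, Cd4 from -0.42 to 0.0017, Cd44 from -0.24 to 0.11, Cd8a from -0.92 to 0.11, Gadd45b from -0.054 to 0.34, H2-D1 from -0.17 to 0.24, Hes1 from -0.079 to 0.17, Il7r from -0.16 to 0.14, Itm2a from -0.31 to 0.25, Notch1 from -0.75 to 0.55, Pdcd1 from -0.048 to 0.10, Socs3 from -0.54 to 0.65, Trav12n-1 from -0.14 to 0.16, Trav6-2 from -0.011 to 0.13 and Zap70 from -0.037 to 1.25. The cause of these changes was not tested. How far signals near or under the array medians could still fall was not tested.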

Other observations

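Genes beside the called ones were read in the RefSeq gene order (GRCm38.p6), 10 measured genes on each side. Of the 20 neighbours of Asf1b, 13 were higher in BDC2.5 cells (45.5% of all genes were). Only 2 were apart without overlap, near the 10.5% of all genes that were so either way. They were Adgrl1, the next measured gene (1.35 ± 0.52 in B6g7, 1.21 in NOD), and Ier2 (1.15 ± 0.34 and 0.51). Of the 20 neighbours of Pelo, 8 were higher and 3 were apart: Isl1, a homeobox gene and the next measured gene on one side (0.86 ± 0.19, limma adjusted p = 0.437, 0.04 in NOD), Parp8 (0.29 ± 0.09) and Fst, the activin antagonist follistatin (0.82 ± 0.42). Itga2, the next on the other side, gave 0.03 ± 0.11. Of the 20 neighbours of Gimap4, 6 were higher and 2 were apart, also near the 10.5% of all genes. Both of these, Zfp398 (-0.07) and Tmem176a (-0.15), were slightly lower. These neighbours were chosen after the calls were seen, and why they lay so was not tested.

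The H2-T family of nonclassical MHC genes read lower in BDC2.5 cells by most but not all of its probe sets, none of them called. The probe sets shared by H2-T9, H2-T22 and H2-T10 gave -1.17 ± 0.30 (93865_s_at, limma adjusted p = 0.961) and -0.87 ± 0.27 (101876_s_at, adjusted p = 1) beside the -1.05 of H2-T18, which gave -1.40 ± 0.30 in NOD. In the other direction, the probe set shared by H2-T-ps and H2-T23 (98472_at) read 1133, 1119 and 785 in BDC2.5 cells against 678 and 655, 0.58 ± 0.37 (adjusted p = 1) without overlap, and the dim H2-T24 gave -0.06 ± 0.14. The largest other differences between strains, B6g7 minus NOD, were 1.45 ± 0.63 for Pbx3, 1.25 ± 0.69 for Prmt1, 1.16 ± 0.83 for Socs3 and 1.10 ± 0.98 for the interferon-induced Isg15. On the other side they were -0.87 ± 0.49 for Anxa2, -0.85 ± 0.49 for Fas, -0.81 ± 0.81 for Rex1bd, -0.75 ± 0.35 for Dhx40, -0.71 ± 0.71 for Tdrp and -0.70 ± 0.46 for Xpc, each at limma adjusted p = 1.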
